A study of Gossypium hirsutum with 18 samples.

Results

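Sucrose synthase cleaves sucrose with UDP into UDP-glucose and fructose in a reversible reaction. It is best known from sink tissues such as roots and developing cotton fibres, where its UDP-glucose can feed cellulose, callose and starch synthesis, and in Arabidopsis some isoforms are induced by low oxygen. Invertases cleave sucrose by the other route, irreversibly, into glucose and fructose. The genes described here are those whose deposited description holds the words sucrose synthase, 18 of 70478 genes in the table. The 11 of these with a mean of at least 5 FPKM (fragments per kilobase, scaled to sequencing depth) in any of 6 groups are the members followed below. They were therefore chosen by their measured levels in these same libraries, so a high level in at least 1 group is part of the choice and not a result. An isoform number, called the type here, ends each description.

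Upland cotton, Gossypium hirsutum, is an allotetraploid with an A and a D subgenome. Its roots and leaves were sequenced as poly(A) RNA in read pairs. Seedlings raised in soil were moved to an alkaline solution, and the protocol names 125 mM NaHCO3 and NaOH of the same pH, both for 12 h. The groups were SAS roots, AS roots and CK roots, and SAS leaves, AS leaves and CK leaves, with 3 libraries each and 18 in all. SAS and AS are the 2 treated codes and CK has the treatment entry none. Which code stands for which solution, the cultivar, the age and the solution given to CK are not stated in the labels. Since separate plants behind the 3 libraries of a group are not mentioned either, p-values here measure the spread among libraries, and that spread may be technical.

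Library totals ran from 46345805 to 66843791 counts. In roots the treated and CK libraries differed in composition. With library totals as the only scaling, the median log2 change of all 39584 genes tested in roots was -0.59 in SAS and -0.49 in AS against CK, while TMM scaling put it at -0.06 and -0.01. The deposited FPKM values are on the scale of the totals. Log2 changes below use TMM, that is, they are relative to the typical gene, and where the scale of the totals gives another call or direction in roots its value stands beside them. Markers of the labelled tissues were checked by their summed FPKM. The 80 genes of green leaf tissue (Rubisco small subunits and light-harvesting proteins) summed to 5496 to 11264 in SAS leaves, 18642 to 20584 in AS leaves and 18026 to 23078 in CK leaves, and to no more than 672 in any root library. The 32 root markers summed to 25.4 to 27.03 in SAS roots, 35.6 to 52.4 in AS roots and 200.1 to 239 in CK roots, against 37.4 to 73.03 in the 9 leaf libraries, so that in treated roots this list did not stand above leaves. The most abundant of the root list, root hair specific 19 (Gh_A07G2109), averaged 9.52 ± 1.82 FPKM in SAS roots, 13.8 ± 1.21 in AS roots and 150.1 ± 18.8 in CK roots (SD, n = 3 each), and its mean stayed at 0.602 or less in each leaf group. This gene made up most of the CK root sum, which averaged 215.2. Of the 9 root markers tested in CK roots against CK leaves, 5 were called higher and 2 lower. Over all genes 31.4% were called higher and 34.7% lower in that comparison.

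The main full-length pairs lie on A and D chromosomes of the same number. Type 3 has Gh_A08G1031 on chromosome A08 from 72239203 to 72244171 and Gh_D08G1309 on D08 from 43067294 to 43072264, both on the minus strand. A pair of type 4 has Gh_A05G3937, on a scaffold assigned to A05, from 40524 to 44014, and Gh_D05G0363 on D05 from 3036699 to 3040187, both on the minus strand. Another pair of type 4 has Gh_A13G1673 on A13 from 75647743 to 75651096 and Gh_D13G2037 on D13 from 55853500 to 55856852, both on the plus strand. Type 5 has Gh_D07G0744 on D07 from 9043657 to 9047234, whose counterpart Gh_A07G0665 on A07 was too low to be a member. The remaining members are of type 4. They are Gh_A07G0146 on A07 from 1833210 to 1837769, Gh_D06G0832 on D06 from 14956779 to 14960202 and the short scaffold models Gh_Sca067278G01, which spans 508 bases, and Gh_Sca127487G01, which spans 174 bases. No build name accompanies these coordinates. Pairs were matched by chromosome number and description, and the handling of reads shared by near-identical copies is unknown. Values of single copies, and of short models that may hold part of a longer gene, are therefore uncertain. Counts of members called may for the same reason count such a model beside the gene it belongs to.

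The 7 described genes below the level of 5 FPKM were Gh_A06G0716, Gh_A07G0665, Gh_A10G1474, Gh_D06G0825, Gh_D07G0139, Gh_D09G0216 and Gh_D11G0438. Just inside the level were Gh_D07G0744, at a highest group mean of 6.03 FPKM, and Gh_A07G0146, at 6.37. Just outside it was Gh_A07G0665, at 2.39. Gh_A10G1474, of type 2, and Gh_D09G0216, of type 1, had a count of 0 in all 18 libraries. Testing required at least 1 FPKM in at least 3 libraries of a fit, which 13 of the 18 genes met in roots and 12 in leaves. These were the 11 members in roots and 10 in leaves, all but Gh_Sca127487G01, with Gh_A06G0716 and Gh_A07G0665 in both tissues.

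Sucrose synthase RNA was far more abundant in roots, and in SAS roots it was lower than in the other root groups. Summed over the 18 genes, it reached 795 to 1146 FPKM in SAS roots, 3397 to 4077 in AS roots and 2284 to 2892 in CK roots. In leaves the sums were 154 to 168 FPKM in SAS, 169 to 191 in AS and 126 to 138 in CK. In summed FPKM neither the 3 root groups nor the 3 leaf groups overlapped, though SAS and AS leaves nearly met. As a share of all counts, the family held 0.200% to 0.292% in SAS roots, 0.863% to 1.04% in AS roots and 0.587% to 0.738% in CK roots. In leaves it held 0.0400% to 0.0436% in SAS, 0.0429% to 0.0490% in AS and 0.0326% to 0.0357% in CK. On this measure SAS and AS leaves overlapped. In such bulk samples, fewer cells of a type that expresses a gene and less RNA per cell cannot be told apart.

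**Figure D1:**
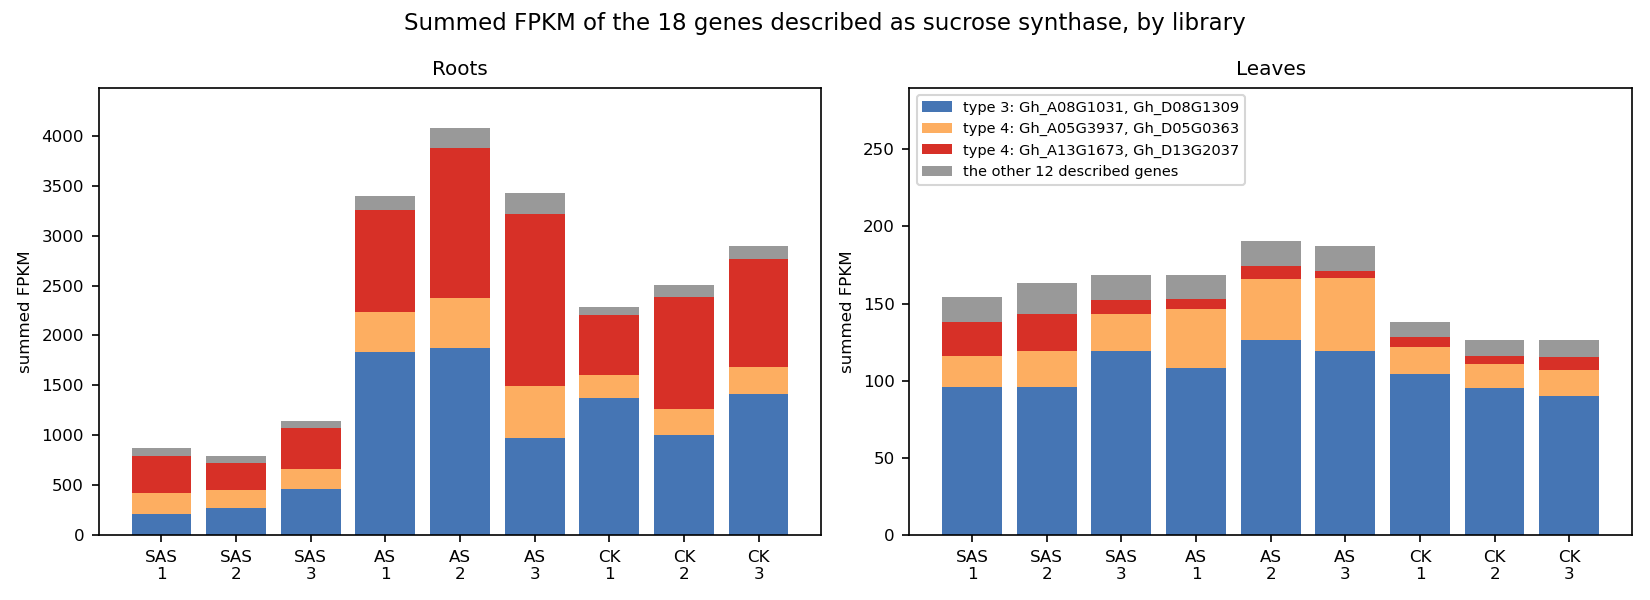
Summed FPKM of the 18 genes described as sucrose synthase (y axis, linear) in each root library (left) and leaf library (right), stacked by the 3 most abundant pairs and the other 12 genes. The SAS root bars end between 795 and 1146 and all AS and CK root bars at 2284 or above, while all leaf bars end between 126 and 191.

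The share of each type in the family tended to differ between tissues, with some overlap. Type 3 held 23.7% to 39.9% of the family's FPKM in SAS roots, 28.4% to 54.1% in AS roots and 39.8% to 59.9% in CK roots. In leaves type 3 mostly held more, 58.8% to 70.7% in SAS, 63.5% to 66.2% in AS and 71.6% to 75.6% in CK. The highest CK root library, at 59.9%, lay above the lowest SAS leaf library, at 58.8%. The leaf groups given SAS or AS lay below CK leaves in every library. Type 5 was a minor part throughout, at most 2.28% in any library. The 11 members held at least 97.0% of the family's FPKM in every library.

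**Figure D2:**
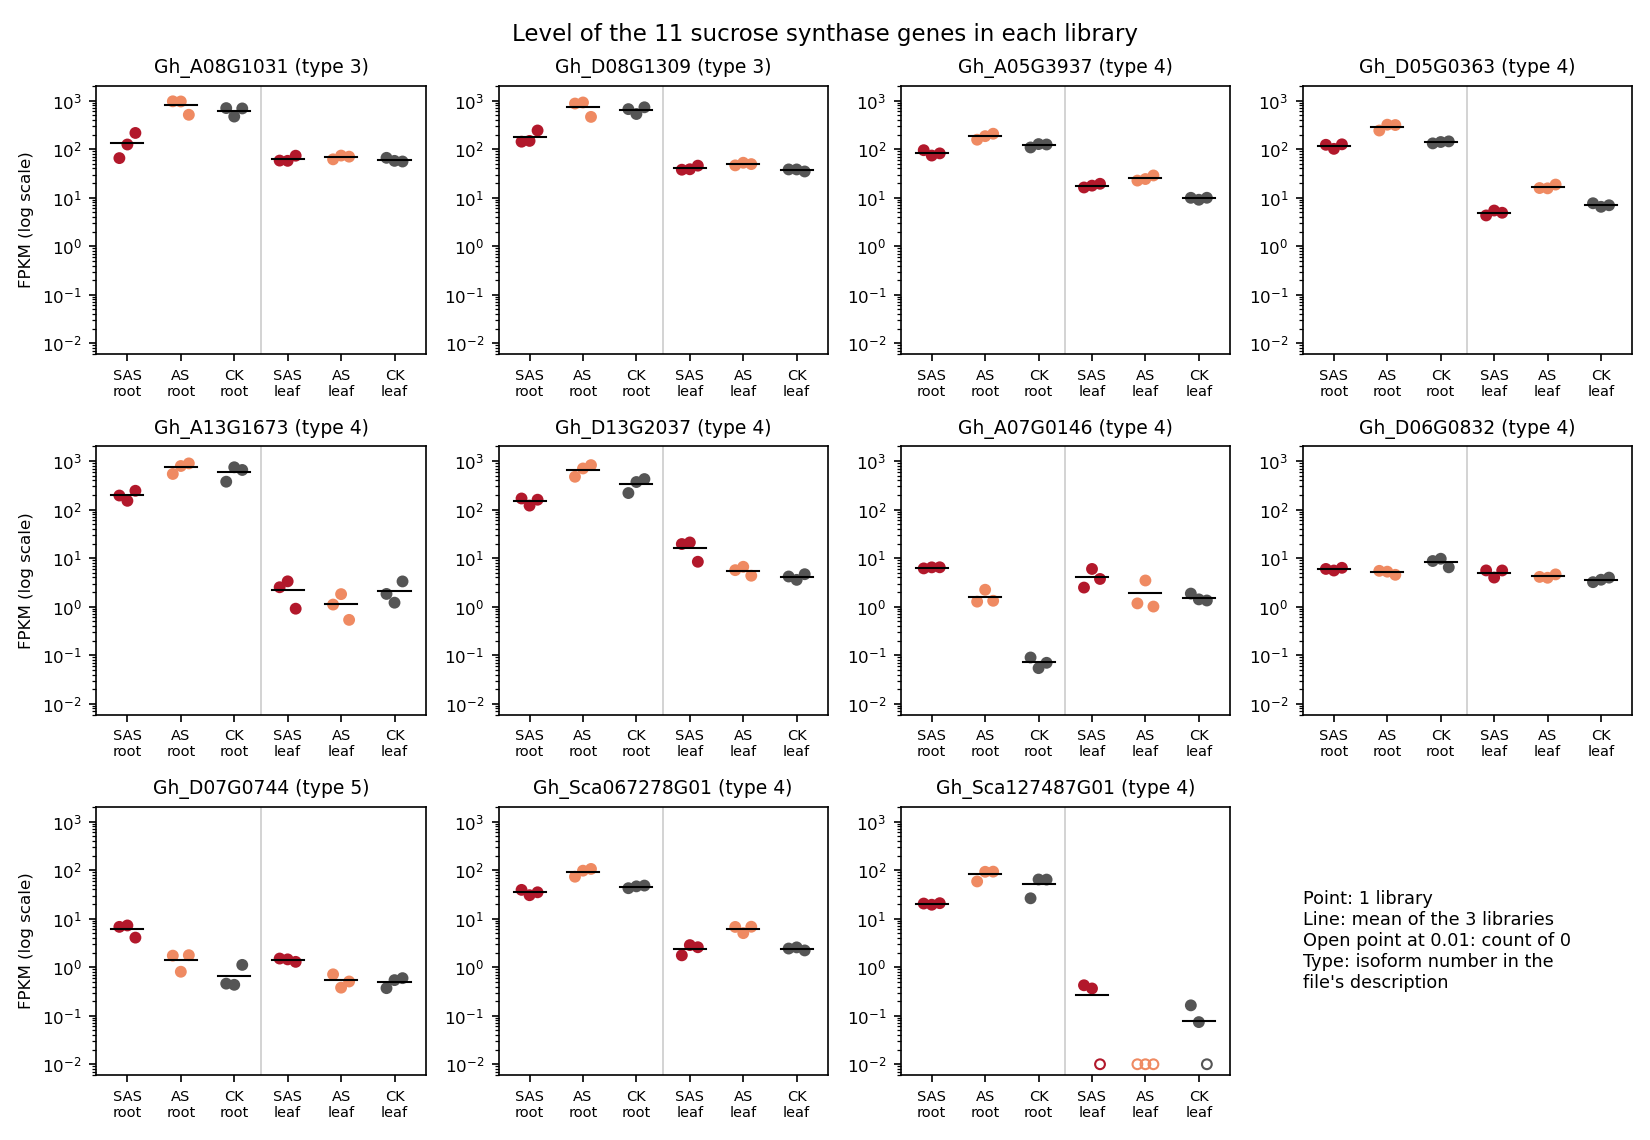
FPKM (log axis) of each of the 11 members in each library, with 3 points and a line at the mean for SAS, AS and CK roots (left of the grey line) and SAS, AS and CK leaves (right). Most members sit far higher in roots, whereas Gh_A07G0146, Gh_D06G0832 and Gh_D07G0744 stay at 9.73 FPKM or less in every library.

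In CK roots against CK leaves, 9 of the 11 members were called higher and 1 lower (adjusted p under 0.05, edgeR's quasi-likelihood test), where over all 48954 genes 31.4% were called higher and 34.7% lower. Because membership was decided by group levels, nothing is read from that count. Gh_A13G1673 averaged 593 ± 193 FPKM in CK roots and 2.12 ± 1.08 in CK leaves (SD, n = 3 each). Its D counterpart Gh_D13G2037 averaged 339 ± 107 FPKM in CK roots and 4.14 ± 0.551 in CK leaves. The type 3 genes led in leaves, with means of 59.7 ± 5.70 FPKM for Gh_A08G1031 and 37.0 ± 2.03 for Gh_D08G1309 in CK leaves. The member lower in CK roots was Gh_A07G0146, at 0.0898, 0.0542 and 0.0698 FPKM in the 3 CK root libraries (8 to 11 counts) and 1.86, 1.41 and 1.34 FPKM in the 3 CK leaf libraries.

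AS against CK in roots asked how the family stood in roots given the AS treatment. Of the 11 members, 7 were higher, 0 were lower and 4 were not called, beside 21% of all genes called higher and 17% called lower. The 2 type 3 genes, Gh_A13G1673 and Gh_D06G0832 were not called. Most members are of type 4, so no difference between types is read from these calls. The 7 include both scaffold models, which may hold part of longer genes. On the scale of library totals the count over the 13 sucrose synthase genes tested was 5 higher and 1 lower, because Gh_D07G0744 and Gh_Sca127487G01 lost their calls (adjusted p = 0.0563 and 0.105) and Gh_D06G0832 was called lower (log2 -0.70, adjusted p = 0.00879). On that scale 12.3% of all genes were called higher and 38.2% lower.

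Gh_D05G0363 stood at 242, 319 and 314 FPKM in AS roots and at 131, 140.2 and 144 in CK roots. All AS libraries lay above all CK libraries, and the gene rose by a log2 of 1.55 ± 0.21 (SE, adjusted p = 0.000578). Its counterpart Gh_A05G3937 had 156, 185 and 208 FPKM in AS roots and 108, 127 and 125 in CK roots, again without overlap (log2 1.08 ± 0.20, adjusted p = 0.00262). Gh_D13G2037 had 476, 705 and 826 FPKM in AS roots and 219.7, 371 and 427 in CK roots (log2 1.44 ± 0.33, adjusted p = 0.00817). For Gh_A13G1673, with 543, 793 and 897 FPKM in AS roots and 376, 746 and 657 in CK roots, the groups overlapped (log2 0.79 ± 0.35, adjusted p = 0.101, edgeR). DESeq2 did call this gene, with an adjusted p of 0.0357.

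The type 3 genes showed one low AS library. Gh_A08G1031 had 967, 960.1 and 510.2 FPKM in AS roots and 701, 469 and 689.9 in CK roots, and Gh_D08G1309 had 870.0, 915 and 462 in AS roots and 668, 529 and 728 in CK roots. In both, AS root replicate 3 was lower than the other AS libraries and the groups overlapped. The changes were not called, at log2 0.89 ± 0.45 (adjusted p = 0.149) for Gh_A08G1031 and log2 0.72 ± 0.36 (adjusted p = 0.141) for Gh_D08G1309. Without AS root replicate 3, Gh_D08G1309 was called higher (log2 1.01, adjusted p = 0.0338).

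Among low members, Gh_A07G0146 had 1.27, 2.23 and 1.32 FPKM in AS roots, all above the CK root values given above (log2 4.90 ± 0.33, adjusted p = 1.87e-05). Gh_D07G0744, of the type 5 group, which in Arabidopsis is tied to callose of sieve plates, had 1.73, 0.806 and 1.77 FPKM in AS roots and 0.458, 0.434 and 1.12 in CK roots. Those ranges overlapped in FPKM, and its call (log2 1.53 ± 0.43, adjusted p = 0.0191) was lost without AS root replicate 1, CK root replicate 1 or CK root replicate 2. Gh_Sca127487G01 was called at log2 1.12 ± 0.34 (adjusted p = 0.0283), a call lost without AS root replicate 2 or 3. Gh_D06G0832 had 5.48, 5.27 and 4.54 FPKM in AS roots and 8.74, 9.73 and 6.48 in CK roots, without overlap on the deposited scale, and was not called under TMM (log2 -0.22 ± 0.18, adjusted p = 0.362).

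SAS against CK in roots gave a different set of calls. The type 3 genes and Gh_A13G1673 fell, the chromosome 5 pair was not called, and the 2 genes called higher were Gh_A07G0146 and Gh_D07G0744. Of the 11 members, 2 were higher and 3 lower, beside 28.6% of all genes called higher and 28.3% called lower. Neither count exceeds the share of all genes, so nothing is read from them about the family. Both higher members entered the set through their SAS root level alone, so they had to be high there and their rise is given without a test. On the scale of library totals the count over the 13 genes tested was 3 higher and 7 lower, with Gh_A05G3937, Gh_D06G0832, Gh_D13G2037 and Gh_Sca127487G01 joining those called lower. On that scale 18.7% of all genes were called higher and 46.6% lower, so 7 of 13 lower is near the share of all genes.

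Gh_A08G1031 had 65.3, 125 and 215 FPKM in SAS roots against 701, 469 and 689.9 in CK roots. Every SAS library lay below every CK library (log2 -1.64 ± 0.46, adjusted p = 0.0125). Gh_D08G1309 had 142, 148 and 242 FPKM in SAS roots against 668, 529 and 728 in CK roots (log2 -1.30 ± 0.36, adjusted p = 0.0117). Gh_A13G1673 had 195, 152 and 245 FPKM in SAS roots against 376, 746 and 657 in CK roots (log2 -1.06 ± 0.35, adjusted p = 0.0255). Those FPKM values did not overlap, whereas the TMM-scaled ones did. Its call was lost, at adjusted p up to 0.0980, without SAS root replicate 1 or 2 or CK root replicate 2 or 3. It was also lost with all 18 libraries in 1 fit (adjusted p = 0.102).

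Gh_D13G2037 had 169.7, 121 and 160.2 FPKM in SAS roots against 219.7, 371 and 427 in CK roots, with no overlap on the deposited scale. Under TMM it was not called (log2 -0.65 ± 0.33, adjusted p = 0.116), and on the scale of totals it was (log2 -1.16, adjusted p = 0.00723). Gh_Sca127487G01 stood at log2 -0.82 ± 0.35 (adjusted p = 0.0652) under TMM and -1.33 (adjusted p = 0.00487) on the scale of totals. Without CK root replicate 1 both were called lower under TMM, at log2 -0.95 for Gh_D13G2037 and -1.20 for Gh_Sca127487G01. For the chromosome 5 pair the direction itself depended on the scale. Gh_D05G0363, at 123, 101 and 126 FPKM in SAS roots against 131, 140.2 and 144 in CK roots, changed by log2 0.29 ± 0.21 under TMM (adjusted p = 0.258) and by -0.24 on the scale of totals (adjusted p = 0.284). Gh_A05G3937, at 95.1, 73.8 and 81.8 FPKM in SAS roots against 108, 127 and 125 in CK roots, changed by log2 0.01 ± 0.20 under TMM (adjusted p = 0.959) and by -0.51 on the scale of totals (adjusted p = 0.0337).

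Gh_A07G0146 had 6.15, 6.46 and 6.49 FPKM in SAS roots against 0.0898, 0.0542 and 0.0698 in CK roots, a log2 change of 6.93 ± 0.35. Gh_D07G0744 had 6.78, 7.24 and 4.07 FPKM in SAS roots against 0.458, 0.434 and 1.12 in CK roots, a log2 change of 3.67 ± 0.46. Of the genes outside the set, Gh_A07G0665, the type 5 gene of A07, also rose, with 3.19, 2.67 and 1.30 FPKM in SAS roots against 1.05, 0.836 and 1.06 in CK roots (log2 1.81 ± 0.33, adjusted p = 0.00127).

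SAS against AS in roots separated the treatments more widely, and here the scale of the library totals moved the median of all genes by only -0.060. Of the 11 members, 8 were lower in SAS and 2 higher, beside 19% of all genes called lower and 20.7% called higher. The 2 higher ones were again Gh_A07G0146 and Gh_D07G0744, which are members through SAS roots alone, so their direction comes from the choice and is no test. The 8 that fell were Gh_A08G1031, Gh_D08G1309, Gh_A05G3937, Gh_D05G0363, Gh_A13G1673, Gh_D13G2037 and both scaffold models, at log2 -2.52 to -1.07. As the scaffold models may hold part of longer genes, these 8 may not be separate genes. For each of them the 3 SAS root libraries lay below the 3 AS root libraries in FPKM. The strongest was Gh_A08G1031, with 65.3, 125 and 215 FPKM in SAS roots and 967, 960.1 and 510.2 in AS roots (log2 -2.52 ± 0.48, adjusted p = 0.00283). The named gene of chromosome D05, Gh_D05G0363, had 123, 101 and 126 FPKM in SAS roots and 242, 319 and 314 in AS roots (log2 -1.26 ± 0.21, adjusted p = 0.00168). The AS and SAS comparisons above share their CK libraries, so the direct comparison is the test of the difference between treatments.

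**Figure D3:**
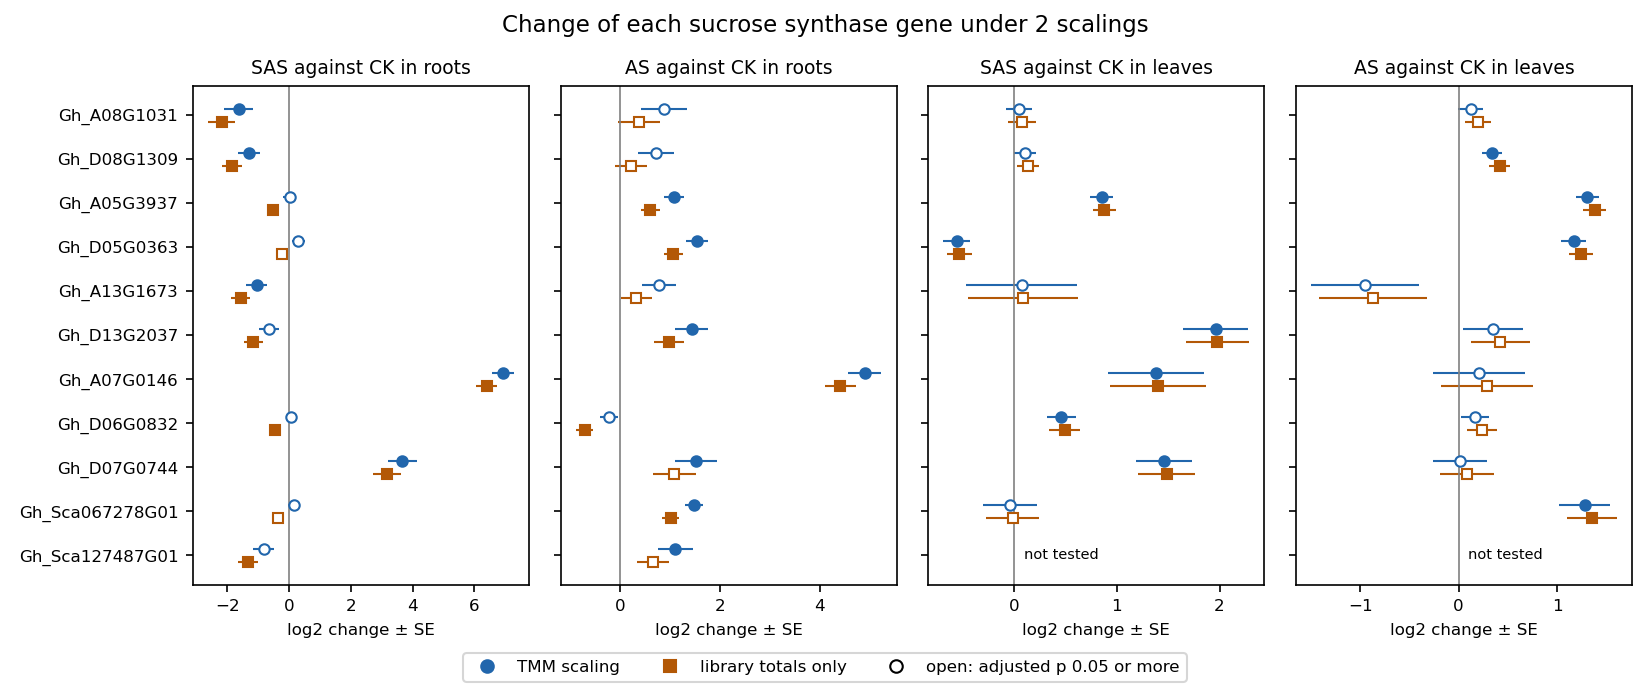
Log2 change ± SE of each member against CK for SAS and AS in roots and in leaves, with TMM scaling (circles) and library totals only (squares), filled where the adjusted p is under 0.05. The squares sit 0.51 to 0.55 to the left of the circles in SAS roots and 0.44 to 0.49 in AS roots, and in SAS leaves Gh_A05G3937 and Gh_D05G0363 lie on opposite sides of 0.

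AS against CK in leaves gave 4 members higher and 0 lower, beside 11.5% of all genes called higher and 9.21% called lower. The number of genes called over all genes in this comparison, 9268, was 4489 to 5986 without AS leaf replicate 1 or 3 or CK leaf replicate 1, 2 or 3. Gh_A05G3937 had 22.5, 24.2 and 28.7 FPKM in AS leaves against 9.93, 9.05 and 9.95 in CK leaves (log2 1.31 ± 0.12, adjusted p = 0.000293). Gh_D05G0363 had 15.8, 15.6 and 18.6 FPKM in AS leaves against 7.68, 6.48 and 6.98 in CK leaves (log2 1.17 ± 0.13, adjusted p = 0.000695). Both copies of the pair rose in every AS leaf library above every CK leaf library. Gh_Sca067278G01 rose likewise (log2 1.28 ± 0.26, adjusted p = 0.00845). Gh_D08G1309 had 46.3, 52.4 and 49.1 FPKM in AS leaves against 38.2, 38.1 and 34.6 in CK leaves, and its call (log2 0.34 ± 0.10, adjusted p = 0.0444) was lost when any of the 6 libraries was left out.

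SAS against CK in leaves split the chromosome 5 pair. Of the 11 members, 5 were higher and 1 lower, beside 27.2% of all genes called higher and 26% called lower. One of the 5, Gh_D07G0744, was testable in leaves only through its SAS level. Gh_A05G3937 rose, with 16.2, 17.7 and 19.3 FPKM in SAS leaves against 9.93, 9.05 and 9.95 in CK leaves (log2 0.85 ± 0.12, adjusted p = 0.000256). Gh_D05G0363 fell, with 4.30, 5.43 and 4.89 FPKM in SAS leaves against 7.68, 6.48 and 6.98 in CK leaves (log2 -0.56 ± 0.13, adjusted p = 0.00519). Neither gene's groups overlapped, and both calls held in all alternative fits that were run. The short model Gh_Sca067278G01 had 1.75, 2.85 and 2.58 FPKM in SAS leaves against 2.42, 2.56 and 2.22 in CK leaves and was not called (log2 -0.04 ± 0.26, adjusted p = 0.919).

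The chromosome 13 pair also parted in leaves. Gh_D13G2037 rose, with 19.5, 21.1 and 8.43 FPKM in SAS leaves against 4.19, 3.57 and 4.67 in CK leaves (log2 1.96 ± 0.32, adjusted p = 0.000634). Gh_A13G1673 had 2.52, 3.33 and 0.909 FPKM in SAS leaves against 1.83, 1.21 and 3.32 in CK leaves, with overlapping groups, and was not called (log2 0.08 ± 0.54, adjusted p = 0.916). SAS leaf replicate 3 was the lowest of its group for both genes. The type 3 genes were not called either, at log2 0.05 ± 0.13 (adjusted p = 0.778) for Gh_A08G1031 and log2 0.11 ± 0.10 (adjusted p = 0.415) for Gh_D08G1309.

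The low members were also higher in SAS leaves. Gh_D07G0744 had 1.51, 1.45 and 1.29 FPKM in SAS leaves against 0.370, 0.541 and 0.595 in CK leaves, a log2 difference of 1.46 ± 0.28. It met the limit of 1 FPKM in 3 libraries only in SAS leaves and could not be tested without any 1 of them, so this is given without a test. Gh_A07G0146 had 2.48, 5.99 and 3.73 FPKM in SAS leaves against 1.86, 1.41 and 1.34 in CK leaves (log2 1.38 ± 0.47, adjusted p = 0.0300). Its call was lost without SAS leaf replicate 2 (log2 0.97) or CK leaf replicate 2 or 3. Gh_D06G0832 had 5.59, 3.98 and 5.58 FPKM in SAS leaves against 3.202, 3.59 and 3.97 in CK leaves (log2 0.46 ± 0.14, adjusted p = 0.0206), and was no longer called without SAS leaf replicate 1 or 3 or CK leaf replicate 1. Outside the set, Gh_A07G0665 rose as well (log2 0.88 ± 0.24, adjusted p = 0.0118).

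SAS against AS in leaves gave 3 members lower in SAS, Gh_A05G3937, Gh_D05G0363 and Gh_Sca067278G01, and 2 higher, Gh_D07G0744 and Gh_D13G2037, beside 19.3% of all genes called lower and 20.7% called higher. The direction of Gh_D07G0744 comes from the limit for testing, which it met through SAS leaves alone. Gh_D05G0363 showed the widest fall, with 4.30, 5.43 and 4.89 FPKM in SAS leaves and 15.8, 15.6 and 18.6 in AS leaves (log2 -1.72 ± 0.13, adjusted p = 0.000188). Gh_A05G3937 fell less, with 16.2, 17.7 and 19.3 FPKM in SAS leaves and 22.5, 24.2 and 28.7 in AS leaves (log2 -0.46 ± 0.11, adjusted p = 0.0112). Gh_D13G2037 was higher in SAS leaves than in AS leaves (log2 1.62 ± 0.31, adjusted p = 0.00345).

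The balance of A and D genes was then followed within each library, where library scaling cancels. These ratios were chosen after the values had been seen. For the chromosome 5 pair the A gene held 76.5% to 79.8% of the pair's FPKM in SAS leaves, 58.8% to 60.9% in AS leaves and 56.4% to 58.8% in CK leaves. In roots it held 39.4% to 43.6% in SAS, 36.7% to 39.8% in AS and 45.2% to 47.5% in CK. The log2 ratio of A to D counts averaged 1.87 ± 0.14 in SAS leaves and 0.46 ± 0.07 in CK leaves (SD, n = 3 each), a difference of 1.41. An exact two-sided permutation test gave p = 0.1, the smallest that 3 against 3 libraries allow, and an adjusted p of 0.141 over 24 such comparisons.

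For the chromosome 13 pair the A gene held 53.5% to 60.4% of the pair in SAS roots, 52.04% to 53.3% in AS roots and 60.6% to 66.8% in CK roots. It held 9.74% to 13.6% in SAS leaves, 10.96% to 21.5% in AS leaves and 25.3% to 41.5% in CK leaves, so the D gene led in every leaf library and the A gene in every root library. The SAS and CK leaf ratios did not overlap (difference in log2 -1.86, exact permutation p = 0.1, adjusted p = 0.141). For the type 3 pair the A gene stood at 59.9% to 61.6% in SAS leaves and 60.04% to 63.4% in CK leaves, which overlapped (difference in log2 -0.06, exact permutation p = 0.4). In SAS roots the type 3 A gene held 31.5% to 47.1%, with SAS root replicate 1 the lowest, against 47.0% to 51.2% in CK roots (difference in log2 -0.45, exact permutation p = 0.2). For type 5, Gh_A07G0665 held 24.3% to 32.01% of its pair in SAS roots and 48.7% to 69.6% in CK roots. Its D gene, Gh_D07G0744, is a member through SAS roots alone, so this lower share comes in part from the choice. All 24 differences kept their direction when FPKM replaced counts and when each library was left out.

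**Figure D4:**
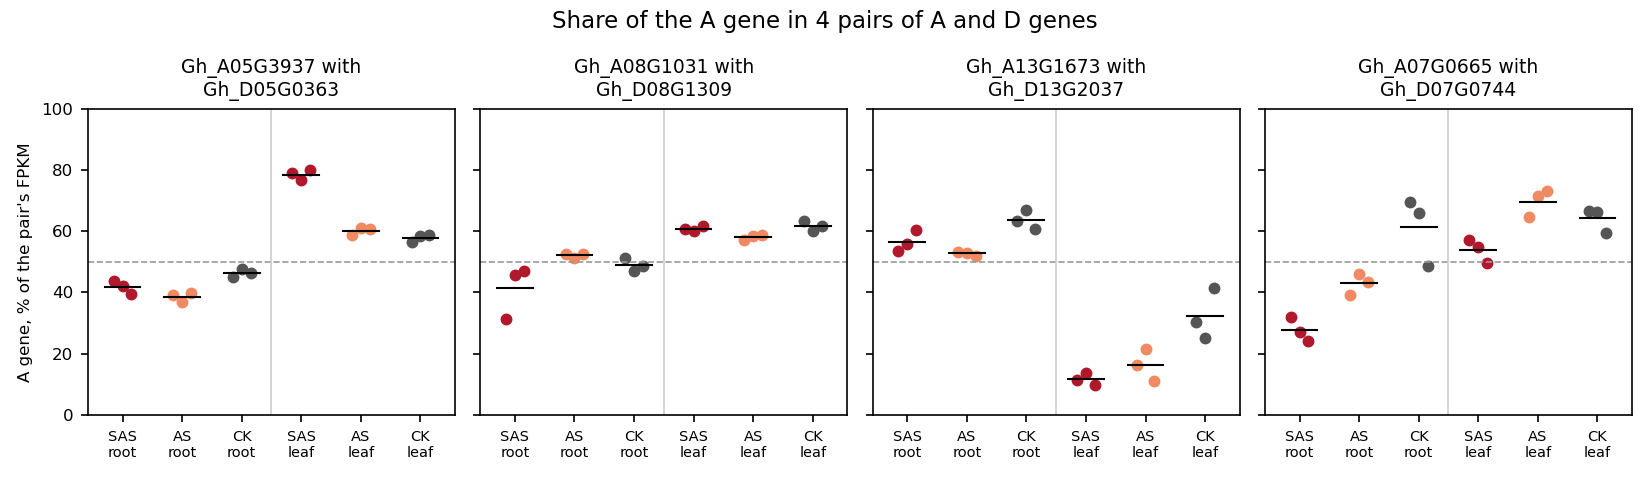
Share of the A gene in the summed FPKM of its A and D pair, in percent, for 4 pairs (panels) and 6 groups, with 1 point per library, a line at the mean and a dashed line at 50%. The chromosome 5 panel shows SAS leaves between 76.5% and 79.8%, above all other groups, and the chromosome 13 panel shows all leaf libraries below 42%.

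Whether responses differed between tissues was tested as an interaction in a fit of all 18 libraries. For AS, 2 members responded more in roots and 0 less, beside 14.5% of all genes called higher and 12.5% called lower. These were Gh_A07G0146 and Gh_D07G0744, both low and members through SAS roots alone. As 2 of 11 is near the share of all genes called higher, nothing is read from that count. On the scale of totals Gh_A07G0146 stayed higher, and Gh_A05G3937 (log2 -0.77) and Gh_D06G0832 (log2 -0.94) were called lower, beside 6.18% of all genes higher and 34.6% lower on that scale. For SAS, 3 members were higher and 4 lower, beside 20.9% called higher and 20% called lower, and 2 of the 3 higher ones are again Gh_A07G0146 and Gh_D07G0744, which SAS roots brought into the set. The remaining higher one was Gh_D05G0363, whose SAS change was greater in roots than in leaves by log2 1.02 ± 0.24 (adjusted p = 0.00342) under TMM and 0.30 on the scale of totals (adjusted p = 0.262). The 4 lower ones, with a smaller or more negative SAS change in roots, were Gh_D13G2037 (log2 -2.43 ± 0.49), Gh_A08G1031 (-1.50 ± 0.51), Gh_D08G1309 (-1.23 ± 0.40) and Gh_A05G3937 (-0.66 ± 0.22), with adjusted p from 0.00117 to 0.0292. All 4 stayed called and negative on the scale of totals, where 11.1% of all genes were called higher and 41.2% lower. Under TMM, Gh_A05G3937 (up to adjusted p = 0.0645), Gh_A08G1031 (up to 0.0615) and Gh_D08G1309 (up to 0.0542) lost their calls when certain single libraries were left out. These were SAS root 2, CK root 2 and 3, SAS leaf 3 and CK leaf 2 for Gh_A05G3937, SAS root 2, CK root 3, SAS leaf 3 and CK leaf 2 and 3 for Gh_A08G1031, and SAS root 1 and 2, CK root 3 and CK leaf 3 for Gh_D08G1309.

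The scaffold models followed longer genes. Across the 18 libraries, log2(FPKM + 1) of Gh_Sca067278G01 had a Pearson r of 0.996 with Gh_D05G0363. That of Gh_Sca127487G01 had an r of 0.994 with Gh_A13G1673 and 0.985 with Gh_D13G2037. All such points share library depth and the contrast of root and leaf, so these values describe likeness only. Over the 9 root libraries alone, r of Gh_Sca127487G01 was 0.962 with Gh_A13G1673 and 0.977 with Gh_D13G2037. Which copy it is most like is therefore not established. Counts of Gh_Sca067278G01 were 4.94% to 5.99% of those of Gh_D05G0363 in roots and 5.68% to 9.42% in leaves. Gh_Sca127487G01 had at most 5 counts in any leaf library and 0 in each AS leaf library, which allows up to 3 counts per library there.

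For 2 members the genes with the most similar profile were sought among 31048 genes, by Pearson r of log2(FPKM + 1) over 18 libraries. For Gh_A08G1031, the member with the highest mean, these were a glyoxalase II (Gh_A01G0289, r = 0.989), an FAD/NAD(P)-binding oxidoreductase (Gh_D01G1075, r = 0.980), hexokinase 1 (Gh_A13G1742, r = 0.975), flavin-dependent monooxygenase 1 (Gh_D04G1677, r = 0.975) and a pyruvate kinase (Gh_D02G1949, r = 0.975). Gh_Sca127487G01 has the greatest ratio of deposited group means, but AS leaves, with 0 counts, enter that ratio at 0.0001 FPKM, so its rank among the members is not established. Its nearest were a nucleoside hydrolase (Gh_A09G2041, r = 0.996), the sucrose synthase Gh_A13G1673 (r = 0.994), phosphate 1 (Gh_D02G0450, r = 0.993), glyoxylate reductase 1 (Gh_D11G1500, r = 0.993) and a peroxidase (Gh_D10G1644, r = 0.992).

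Invertases, the other route of sucrose cleavage, mostly rose in SAS roots, where the type 3 sucrose synthases fell. Of 61 invertase genes 33 were tested in each tissue. In SAS roots 21 rose and 7 fell (17 and 9 on the scale of totals), with a median log2 change of 1.21, beside -0.06 for all genes. The shares of all genes called in each comparison are those given above, 28.6% higher and 28.3% lower in SAS roots under TMM and 18.7% and 46.6% on the scale of totals, and they apply to each list that follows. In AS roots 17 rose and 7 fell (13 and 11 on the scale of totals), in SAS leaves 10 rose and 10 fell, and in AS leaves 4 rose and 4 fell. Gh_D03G0541, of glycosyl hydrolase family 32, averaged 917 ± 106 FPKM in SAS roots, 779 ± 42.1 in AS roots and 199 ± 71.6 in CK roots. Its changes were log2 2.73 in SAS roots (adjusted p = 0.000104) and 2.42 in AS roots (adjusted p = 0.000518).

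Set against each other in the same library, the 18 sucrose synthase genes summed to 0.399 to 0.521 of the FPKM of the 61 invertase genes in SAS roots, 2.12 to 2.70 in AS roots and 3.66 to 4.68 in CK roots. In leaves the ratios were 0.171 to 0.348 in SAS, 0.5004 to 0.539 in AS and 0.372 to 0.400 in CK. SAS thus had the lowest ratios of its tissue in roots and in leaves, with no overlap between groups in either tissue. Library scaling cancels in this ratio too, and no test is given for it, since the family was chosen with results of these data known.

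Other genes that make, move or use sucrose and UDP-glucose were counted from lists of descriptions. Median log2 changes below stand beside medians over all genes of -0.06 in SAS roots and -0.01 in AS roots, -0.0033 in SAS leaves and -0.02 in AS leaves. Among hexokinases, fructokinases and UDP-glucose pyrophosphorylases, which take up the products of sucrose synthase, 4 rose and 4 fell of 14 tested in SAS roots (median -0.13) and 4 rose and 1 fell in AS roots (median 0.25). In leaves 4 rose and 4 fell of 16 in SAS, and 8 rose and 1 fell in AS. UDP-glucose pyrophosphorylase 2, Gh_D11G1720, averaged 312.5 ± 70.2 FPKM in AS roots and 115 ± 34.7 in CK roots (log2 1.90, adjusted p = 0.0252). Cellulose and callose synthases, which draw on UDP-glucose, fell in 30 of 39 and rose in 1 in SAS roots (median -1.39), and fell in 19 and rose in 1 in AS roots (median -0.66). In leaves 10 rose and 18 fell of 47 in SAS, and 2 rose and 1 fell in AS. Cellulose synthase 1, Gh_A05G3967, averaged 3.91 ± 1.71 FPKM in SAS roots and 17.5 ± 7.01 in CK roots (log2 -1.61, adjusted p = 0.00217).

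Starch synthesis genes rose in 1 and fell in 15 of 31 in SAS roots (median -0.99), and rose in 1 and fell in 11 in AS roots (median -0.40). In leaves 0 rose and 20 fell of 44 in SAS (median -0.53), and 0 were called either way in AS. Sucrose phosphate synthases and phosphatases, which make sucrose, had 2 rising and 1 falling of 6 in SAS roots, 0 called in AS roots, 3 rising and 7 falling of 14 in SAS leaves, and 1 rising and 2 falling in AS leaves. Sucrose transporters had 3 rising and 4 falling of 12 in SAS roots, 2 rising and 6 falling in AS roots, 2 rising and 2 falling of 11 in SAS leaves, and 0 rising and 1 falling in AS leaves. On the scale of totals, the numbers rising and falling in SAS roots were 4 and 6 for hexokinases and pyrophosphorylases, 1 and 35 for cellulose and callose synthases, 1 and 20 for starch synthesis, 1 and 2 for the sucrose phosphate enzymes and 2 and 7 for transporters. In AS roots they were 3 and 3, 0 and 28, 1 and 16, 0 and 2, and 2 and 9 for the lists in that order.

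Fermentation and low-oxygen genes (pyruvate decarboxylases, alcohol dehydrogenase 1, lactate dehydrogenases and hemoglobins) had 8 rising and 5 falling of 26 in SAS roots, or 4 and 9 on the scale of totals, and 12 rising and 1 falling in AS roots, or 8 and 3. In leaves 8 rose and 4 fell of 19 in SAS, and 3 rose and 1 fell in AS. Alcohol dehydrogenase 1, Gh_D02G0733, averaged 2058 ± 420.3 FPKM in SAS roots, 5733 ± 814 in AS roots and 5906 ± 299 in CK roots. Its change under TMM was log2 -0.98 in SAS roots (adjusted p = 0.0181) and log2 0.44 in AS roots, not called (adjusted p = 0.263). In FPKM, which is on the scale of the totals, the AS root mean lay below the CK root mean. No direction is therefore established for this gene in AS roots.

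Lists of cell type markers were counted in the same comparisons. Of 54 phloem genes (phloem protein 2, sieve element occlusion and sucrose-proton symporter 2 types), 24 rose and 6 fell of 43 tested in SAS roots, and 25 rose and 3 fell in AS roots. On the scale of totals these counts were 19 and 12 in SAS roots and 18 and 10 in AS roots. Their summed FPKM was 1156 to 1678 in SAS roots, 1530 to 2298 in AS roots and 769 to 983 in CK roots, with 5 to 7 of the 54 at 0 in a whole root group. In leaves 20 rose and 10 fell in SAS and 12 rose and 8 fell in AS. Green leaf markers rose in 0 and fell in 43 of 66 in SAS leaves, and 3 rose and 3 fell in AS leaves, with 3 to 5 of the 80 at 0 in a whole leaf group. In roots 9 rose and 3 fell of 17 in SAS, and 5 rose and 0 fell in AS, but on the scale of totals 6 rose and 5 fell in SAS and 4 rose and 3 fell in AS. The summed FPKM of the 80 green markers went the other way in roots. It was 175 to 227 in SAS, 345 to 530 in AS and 617 to 672 in CK. Root markers had 1 rising and 3 falling of 7 in SAS roots and 1 rising and 2 falling in AS roots, or 0 and 4 in SAS roots and 1 and 4 in AS roots on the scale of totals, and 12 or 13 of the 32 were at 0 in a whole root group. In leaves 1 rose and 2 fell of 5 in SAS, and 1 rose and 0 fell in AS. Secondary wall markers had 1 rising of 1 tested in SAS roots, or 0 on the scale of totals, and 0 called in AS roots, with 2 falling of 4 in SAS leaves and 1 rising in AS leaves. The part of these cell types in the sucrose synthase results was not tested.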

How the data were processed

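RNA-seq of 18 libraries was analysed. HISAT and StringTie are named, without versions, per the submitters' processing notes. The deposited table gives raw counts per gene and, per the file headers, FPKM computed by the authors. A count of 0 is listed there at 0.0001 FPKM. Among counts of 1 to 20, 56.1% to 59.8% per library were even. No genome build is named, and 0 gene identifiers matched the reference of 99454 genes.

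Counts were tested with edgeR 4.0.16 (quasi-likelihood, TMM) in R 4.3.3, per tissue over 9 libraries, and over all 18 for tissue contrasts, for genes with at least 1 FPKM in at least 3 libraries. P-values were adjusted by Benjamini-Hochberg over all genes tested and called under 0.05. The SE of a log2 change is its size over the square root of F. Fits were tested on simulated data drawn from CK means, which held no shift in composition like that between treated and CK roots. Alternatives used DESeq2 1.42.0, limma 3.58.1 on log2(FPKM + 1), library totals, no filter, a replicate block and single libraries left out. SciPy 1.17.1 gave the exact permutation p-values.

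Members and lists were chosen with earlier results of these data known, and list matching was corrected from descriptions before testing. Named genes are all members, up to 3 of the most abundant genes of each list and the 5 nearest profiles of 2 members. The examples given per list were picked from those 3 after their values were seen.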

Additional observations from a re-analysis of the deposited data

Results flagged for a closer look

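Responses of single sucrose synthase genes to a treatment differed between roots and leaves by a test of that difference, an interaction term in edgeR's fit of 18 libraries. For AS, the change of Gh_A07G0146 was greater in roots by a log2 of 4.81 ± 0.68 (adjusted p = 0.000202), where CK roots held 8 to 11 counts of it. For Gh_D07G0744 the AS difference was 1.62 ± 0.55 (adjusted p = 0.0391), and on the scale of library totals 1.01 (adjusted p = 0.153). Its call was also lost when any of 8 libraries was left out (AS root 1 or 3, CK root 1 or 2, AS leaf 2 or 3, CK leaf 2 or 3), with log2 from 1.35 to 1.59.

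For SAS, the difference was 1.02 for Gh_D05G0363 and -0.66 for Gh_A05G3937, so the copies of this pair differed between tissues in opposite directions under TMM. It was -2.43 for Gh_D13G2037, -1.50 for Gh_A08G1031 and -1.23 for Gh_D08G1309. Outside the members it was 1.49 ± 0.53 for Gh_A06G0716 (adjusted p = 0.0359) and 1.11 ± 0.43 for Gh_A07G0665 (adjusted p = 0.0484). Both calls were also lost with single libraries left out, at adjusted p up to 0.0864 for Gh_A06G0716 (SAS root 1, CK root 1, SAS leaf 2 or 3, CK leaf 1 or 3) and up to 0.120 for Gh_A07G0665 (SAS root 1 or 2, CK root 1, 2 or 3, SAS leaf 2 or 3, CK leaf 2 or 3). On the scale of library totals these positive SAS differences were no longer called, at 0.30 for Gh_D05G0363, 0.76 for Gh_A06G0716 and 0.39 for Gh_A07G0665.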

How the results depend on the processing

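Over the 18 described genes the number called kept within 1.5 times of its value in most alternatives. Exceptions were SAS against CK in roots, with 6 called and 10 on the scale of library totals, the AS response in roots against leaves, with 2 called, 1 with a replicate block and 1 to 2 with a library left out, and the SAS response, with 9 called, 5 with a replicate block and 5 to 9 with a library left out. Replicate numbers showed no sign of pairing the samples. Correlations of same-numbered residuals ran from -0.12 to 0.12 and those of different-numbered ones from -0.19 to 0.21. With 3 libraries per group, such a check could miss a pairing. Uncalled SAS root changes turned negative on the scale of totals and under limma, at -0.51 and -0.52 for Gh_A05G3937, -0.24 and -0.25 for Gh_D05G0363, -0.47 and -0.40 for Gh_D06G0832, and -0.38 and -0.38 for Gh_Sca067278G01. With single libraries left out, the ranges were -0.13 to 0.12 for Gh_A05G3937 and -0.10 to 0.18 for Gh_D06G0832. In SAS leaves, uncalled changes became -0.058 for Gh_A08G1031 and -0.037 for Gh_A13G1673 with all 18 libraries in 1 fit, and -0.15 for Gh_A13G1673 with a replicate block. Leaving out libraries gave -0.047 to 0.14 for Gh_A08G1031 and -0.34 to 0.56 for Gh_A13G1673. The cause of these changes was not tested. Over all genes, 9268 were called for AS and 17919 for SAS against AS in leaves, and 4017 and 8831 with all 18 libraries in 1 fit. Limma called 21059 genes in the AS response and DESeq2 16425, against 13230. Of the genes called, the share higher on the scale of totals and under edgeR's TMM was 28.6% and 50.2% for SAS roots, 24.4% and 55.2% for AS roots, and 70.9% and 55.5% for AS leaves. It was 21.3% and 51.1% for the SAS response and 15.1% and 53.6% for the AS response. Limma gave 28.2%, 22.8%, 68.4%, 29.8% and 19.3% in that order.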
